A study of Mus musculus with 22 samples.

Results

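Olig1, Olig2, Sox10, Pdgfra, Gpr17, Neu4, C1ql1 and Lhfpl3 are 8 genes that mark oligodendrocyte precursors, and they were followed here through sorted microglia and astrocytes of aged mouse cortex. They were taken by symbol from the probe annotation of the array, which held 18 probes for them among 43020 probes, and all 8 were present among 22485 named genes. Pdgfra had 10 probes, Lhfpl3 had 2 and the others had 1 each. A gene with several probes was read from the one with the highest mean over the 22 samples, its main probe. Blanks were left out of this mean. The main probe of Pdgfra was measured on 8 of 11 arrays, and its other probes on 9 or 10, so blanks bear on which probe was chosen. Mice of the C57BL/6 strain aged 15 to 18 months were used, either transgenic for APPswe/PS1dE9 (APP/PS1 here) or their wild-type littermates (WT here). APP/PS1 mice carry mutant human amyloid precursor protein and presenilin 1 transgenes driven by prion gene sequence and develop cortical plaques. Microglia were sorted as CD11b+ and CD45+ cells (7 WT and 7 APP/PS1 samples) and astrocytes as GLT1+ and CD11b- cells (4 WT and 4 APP/PS1 samples). In both sorts myelin had been depleted, the gate took O4- cells, and dead cells were removed with 7AAD. Each of 11 two-colour Agilent arrays held 1 WT and 1 APP/PS1 sample with equal cell type and number, so that genotypes were compared within an array.

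Oligodendrocyte precursors are dividing glial cells that express the platelet-derived growth factor receptor alpha and respond to its ligand. The paired basic helix-loop-helix factors Olig1 and Olig2 and the high mobility group factor Sox10 specify and maintain the lineage. As precursors commit to differentiation they lose Pdgfra, pass through a stage marked by the receptor Gpr17, acquire the O4 sulfatide epitope and later express myelin genes. Early precursors carry little O4, so an O4- gate acts on the later stages. Olig2 is not exclusive to this lineage, since some mature astrocytes of the brain also express it. None of the 8 genes was used as a sorting antigen.

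The labelled cell types were checked first against their markers. Of 14 astrocyte markers, 14 were higher in astrocyte samples, by a median of 7.70 log2 units, and 13 of 13 microglia markers measured were lower there, by a median difference of -7.38 (astrocytes minus microglia). Markers of other cells were also present in the astrocyte sort. The mean log2 value over 8 endothelial markers was 12.10 to 12.98 in WT and 12.95 to 13.92 in APP/PS1 astrocyte samples, and that over 7 mural markers was 10.19 to 12.52 and 12.08 to 14.05. Signals of dim probes were often blank in microglia, whose columns held 32045 to 40771 values against 42427 to 42869 for astrocytes. On the arrays of astrocyte replicates 1 and 3 and microglia replicate 1, the WT and APP/PS1 samples differed by 5.06, 5.09 and 6.07 log2 units in the Y-linked gene Eif2s3y, so genotype results for Olig1 and Olig2 are also given without these arrays. On that of microglia replicate 7 they differed by 2.74, but both lay below 7, and it was kept under this rule, which was chosen after seeing the data.

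**Figure D1:**
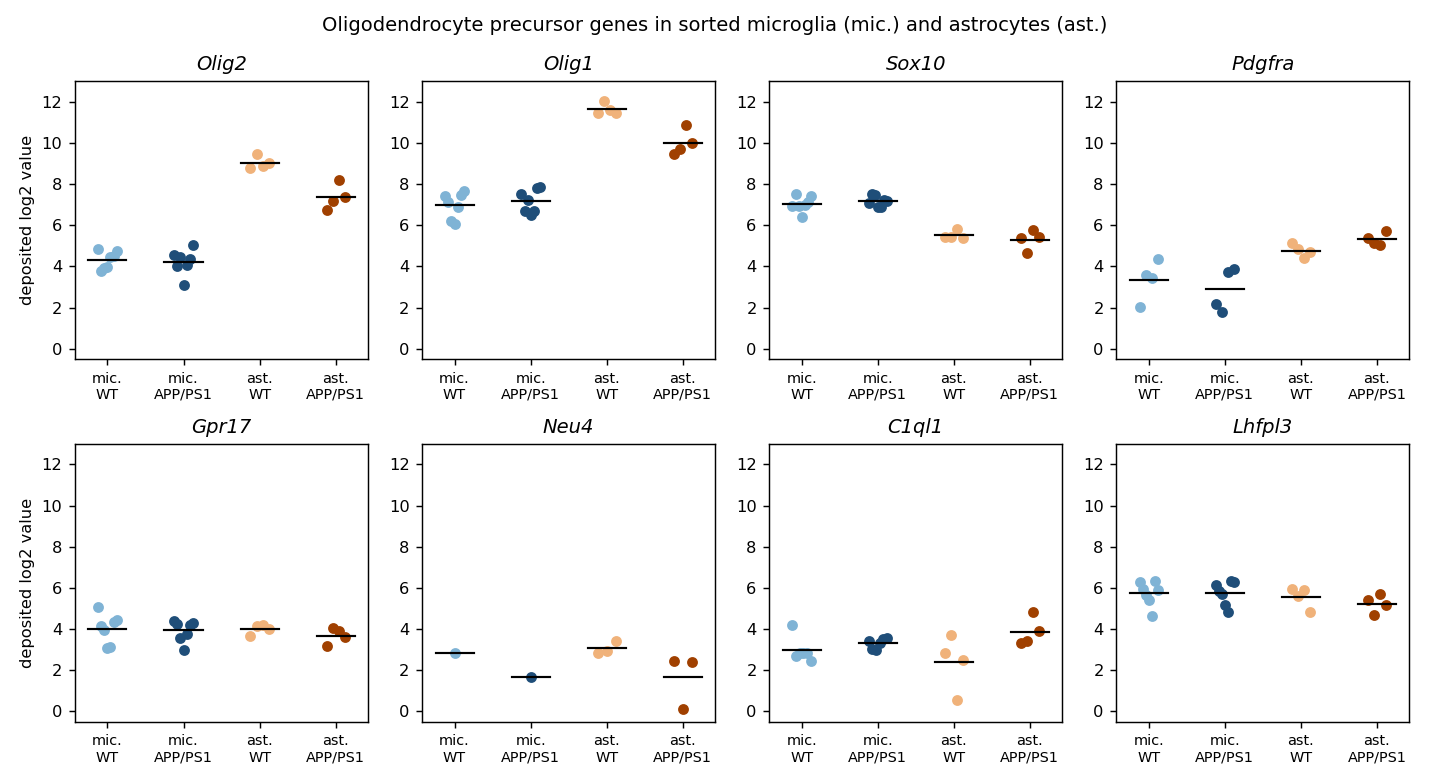
Deposited log2 values of the 8 genes (vertical axis) in every measured sample of the 4 groups (horizontal axis), at the main probe of each gene; points are samples and lines are group means. Olig2 and Olig1 stood higher in all astrocyte samples than in any microglia sample, while Sox10 stood higher in microglia. The WT and APP/PS1 astrocyte values of Olig2 and Olig1 did not overlap, a separation that was not counted over all genes.

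Olig2 encodes the transcription factor that is needed to form the oligodendrocyte lineage. In WT astrocyte samples 1 to 4 the log2 value of Olig2 (probe 34189) was 8.76, 9.44, 8.85 and 9.03, and in APP/PS1 astrocyte samples 1 to 4 it was 6.73, 7.18, 8.20 and 7.39. The 2 groups did not overlap: the highest APP/PS1 sample, number 3, lay below the lowest WT sample, number 1. How many of all genes separate in this way was not counted, here or for the genes below. Among all genes tested, 33.4% were called for genotype in astrocytes. Within arrays 1 to 4, APP/PS1 minus WT was -2.03, -2.26, -0.65 and -1.63, and all 4 arrays moved the same way. The fitted genotype effect of Olig2 in astrocytes was -1.64 ± 0.28 (SE, 95% interval -2.26 to -1.02, limma adjusted p = 0.00154), a 3.12-fold lower signal in APP/PS1 samples. In bulk sorted samples such as these, fewer cells of a type and less RNA per cell cannot be told apart. On the 2 astrocyte arrays whose samples matched in Eif2s3y, with microglia replicate 1 also left out, the effect was -1.95 (limma adjusted p = 0.0113, and 0.0206 without microglia replicate 7 as well).

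The signal of Olig2 in microglia was much lower and did not separate the genotypes. Its log2 value ranged from 3.78 to 4.86 with a median of 4.44 in 7 WT microglia samples, and from 3.09 to 5.05 with a median of 4.34 in 7 APP/PS1 microglia samples. The groups overlapped almost fully, and 3 of 7 arrays were higher and 4 lower in APP/PS1. The genotype effect in microglia was -0.08 ± 0.21 (95% interval -0.55 to 0.39, limma adjusted p = 0.842). The effect in astrocytes was lower than that in microglia by a difference of -1.56 ± 0.35 (limma adjusted p = 0.00889), but this call was lost with microglia of slide 1 only (-1.52, limma adjusted p = 0.0598). Averaged over the genotypes, Olig2 was 3.93 ± 0.36 log2 units higher in astrocyte than in microglia samples (limma adjusted p = 1e-08), and every astrocyte sample exceeded every microglia sample. The microglia signal was dim, brighter than that of 9.32% to 33.5% of genes, so the size of this difference and the microglia values of Olig2 are imprecise and no fold is given.

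Upstream windows were picked by the astrocyte results: Olig2 fell, while Pdgfra, shown further on, did not. Any relation of their letters to these results was not tested. The stretch just before the start of Olig2 is shown first. It is the RefSeq-based window chr16:91225300-91225549 of GRCm38.p6, plus strand, written 5′ to 3′, and 4 of the 8 genes (Olig2, Pdgfra, Neu4 and Lhfpl3) had an entry in the promoter table used. Capitals mark letters found on either strand that match the E-box bound by basic helix-loop-helix factors, CANNTG, or the Sox-type letters ACAAAG and ACAATG.

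Olig2: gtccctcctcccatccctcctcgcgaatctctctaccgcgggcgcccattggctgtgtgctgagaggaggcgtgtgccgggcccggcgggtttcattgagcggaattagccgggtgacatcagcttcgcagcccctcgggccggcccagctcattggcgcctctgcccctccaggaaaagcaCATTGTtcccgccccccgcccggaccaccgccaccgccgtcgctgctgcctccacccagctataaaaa

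The Olig2 window held 0 matches to CANNTG, 0 to ACAAAG and 1 to ACAATG, the last read on the minus strand. Of 32851 windows of 250 bases in the table, 66.2% held CANNTG, 16.5% held ACAAAG and 10.7% held ACAATG. The window was 66.8% G and C, against a median of 52.4% over all windows.

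Olig1 encodes the sister factor of Olig2 and is needed for myelin formation and repair. The 2 genes lie close together on chromosome 16, with 1 predicted gene, Gm52261, between them in the RefSeq table. The log2 value of Olig1 (probe 19957) was 11.44, 12.02, 11.57 and 11.47 in WT astrocyte samples 1 to 4 and 9.46, 9.71, 10.85 and 10.01 in APP/PS1 astrocyte samples 1 to 4. Again the groups did not overlap, and again APP/PS1 sample 3 lay nearest to the WT samples. Differences within arrays 1 to 4 were -1.98, -2.31, -0.72 and -1.45, in the same order of size as those of Olig2. The genotype effect of Olig1 in astrocytes was -1.62 ± 0.26 (SE, 95% interval -2.20 to -1.04, limma adjusted p = 0.00123), 3.06-fold lower. Without astrocyte replicates 1 and 3 and microglia replicate 1 it was -1.88 (limma adjusted p = 0.0144, and 0.0278 without microglia replicate 7 as well).

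In microglia Olig1 ranged from 6.06 to 7.66 (median 7.11) in WT and from 6.48 to 7.84 (median 7.24) in APP/PS1 samples, on the log2 scale. These groups overlapped, with 5 of 7 arrays higher and 2 lower in APP/PS1. The genotype effect was 0.24 ± 0.20 (95% interval -0.20 to 0.69, limma adjusted p = 0.454). The effects differed between the cell types by -1.86 ± 0.33, astrocytes minus microglia (limma adjusted p = 0.00267). Olig1 was 3.74 ± 0.36 log2 units higher in astrocyte samples, 13.4-fold, when averaged over the genotypes (limma adjusted p = 1.95e-08). With WT samples alone the cell type differences were larger, 4.67 for Olig1 and 4.71 for Olig2.

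Sox10, the third transcription factor of the set, is present from precursors to mature oligodendrocytes and drives myelin genes. Sox10 (probe 10435) ran opposite to the Olig genes between the cell types. Its log2 value was 5.45, 5.41, 5.81 and 5.37 in WT and 5.36, 4.66, 5.77 and 5.42 in APP/PS1 astrocyte samples, and it ranged from 6.41 to 7.49 (median 7.00) in WT and from 6.86 to 7.50 (median 7.18) in APP/PS1 microglia samples. No astrocyte sample reached the lowest microglia sample. The cell type difference was -1.70 ± 0.21 (astrocytes minus microglia, limma adjusted p = 8.55e-07), 3.25-fold lower in astrocytes. Sox10 was brighter than 29.9% to 41.4% of genes in astrocyte samples and than 45.6% to 55.5% in microglia samples. The genotype effect did not pass in astrocytes (-0.21 ± 0.15, limma adjusted p = 0.326) or in microglia (0.14 ± 0.11, limma adjusted p = 0.446). Its difference between the cell types, -0.35 ± 0.19, did not pass either (limma adjusted p = 0.203). The fall of Olig1 and Olig2 in astrocytes was thus not accompanied by a called change of Sox10, whose interval was -0.55 to 0.13.

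Pdgfra encodes the receptor that keeps precursors dividing, and outside the lineage it is also made by fibroblasts of the vessels and meninges. At its main probe (24610) the log2 value was 5.15, 4.82, 4.39 and 4.71 in WT astrocyte samples 1 to 4 and 5.36, 5.12, 5.05 and 5.74 in APP/PS1 astrocyte samples 1 to 4. The groups overlapped, although each array was higher in APP/PS1, by 0.21, 0.31, 0.66 and 1.03. The genotype effect was 0.55 ± 0.34 (SE, 95% interval -0.27 to 1.37) and did not pass (limma adjusted p = 0.277). It passed when microglia replicate 2 was left out (0.55, limma adjusted p = 0.0265), through the spread shared by both cell types. The main probe was brighter than 26.7% to 40.4% of genes in astrocyte samples.

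In microglia the main Pdgfra probe was measured on 4 of 7 arrays and was blank on the others. Its values on arrays 1, 2, 6 and 7 were 2.02, 3.57, 3.43 and 4.37 in WT and 2.17, 1.79, 3.71 and 3.88 in APP/PS1 samples. Array 2 gave a difference of -1.78 and the others lay between -0.49 and 0.28, so the effect of -0.46 ± 0.34 was not called (limma adjusted p = 0.434). On the slide that held microglia arrays 2 to 5 it was -2.07 (limma adjusted p = 0.0356), a value that rests on array 2 alone. Pdgfra was 1.92 ± 0.54 log2 units higher in astrocyte samples (limma adjusted p = 0.00766). The microglia side of this value comes from the 4 arrays that gave a signal, brighter there than 2.21% to 25.8% of genes, so its size is imprecise and no fold is given. All astrocyte arrays lay on a slide of their own, so the cell type and the slide cannot be told apart, and with slide as a random block the adjusted p of Pdgfra was 0.147. With WT samples alone its difference was 1.42 (limma adjusted p = 0.0561). For Olig1, Olig2 and Sox10 the cell type call passed in both of these fits, neither of which can separate cell type from slide.

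The window before the start of Pdgfra is given for comparison with that of Olig2, as chr5:75152001-75152250 of GRCm38.p6, plus strand, from the same RefSeq-based table and with the same capitals.

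Pdgfra: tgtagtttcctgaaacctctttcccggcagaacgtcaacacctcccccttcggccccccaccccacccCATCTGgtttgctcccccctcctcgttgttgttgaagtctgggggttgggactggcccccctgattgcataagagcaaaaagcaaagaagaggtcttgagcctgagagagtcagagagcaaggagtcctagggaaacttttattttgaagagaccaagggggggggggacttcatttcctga

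It held 1 match to CANNTG and 0 to either Sox-type string, at 54.4% G and C. These matches are a description of letters and not of bound sites.

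The 10 probes of Pdgfra carry the same transcript annotation, so they repeat 1 gene in the same samples and are not separate replicates. All 10 were higher in astrocyte than in microglia samples, by 1.63 to 2.35 log2 units, and all 10 were called (limma adjusted p between 0.00337 and 0.032). In astrocytes the genotype effect was positive at 10 of 10 probes, from 0.13 to 0.74 with a median of 0.57, and none was called (limma adjusted p between 0.0935 and 0.83; 1 probe at an unadjusted p under 0.05). In microglia it was negative at 9 of 10 probes, from -1.30 to 0.12 with a median of -0.62, again with none called (lowest limma adjusted p 0.0533; 3 probes at an unadjusted p under 0.05). The difference of the 2 effects was positive at all 10, between 0.58 and 1.89. It passed at 1 of them, probe 24649, with 1.61 ± 0.39 (limma adjusted p = 0.0196), while the main probe gave 1.01 ± 0.49 (limma adjusted p = 0.183).

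**Figure D2:**
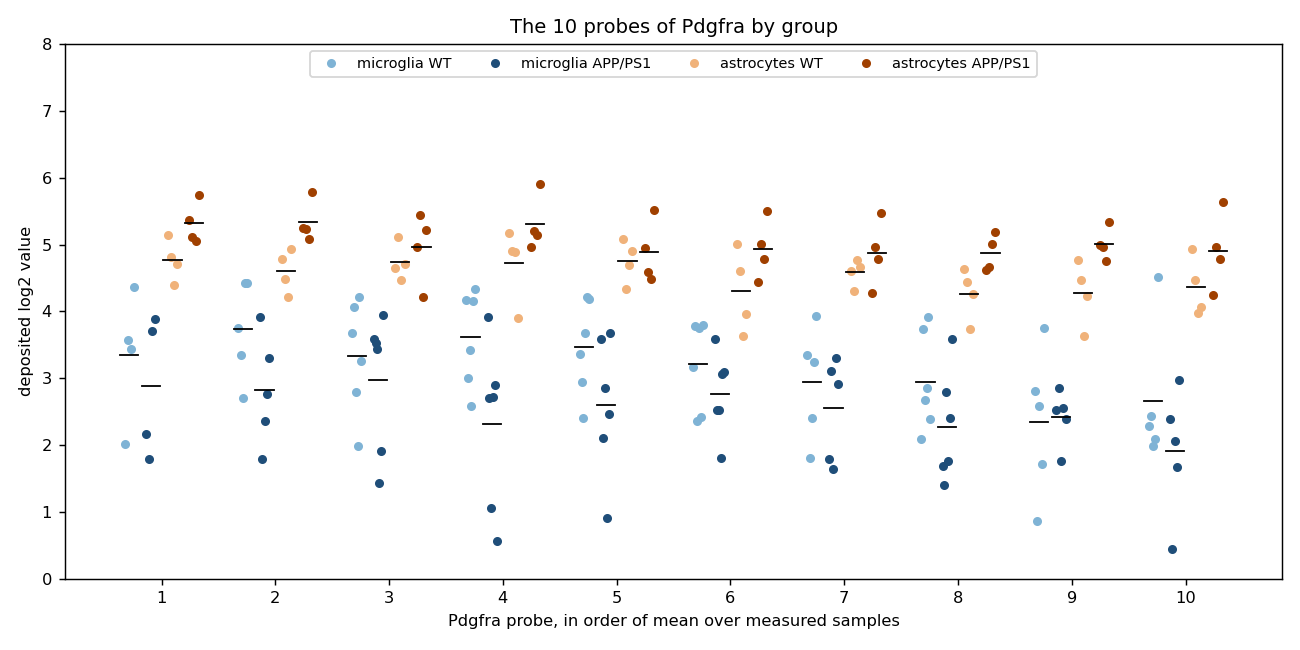
Deposited log2 values (vertical axis) of the 10 Pdgfra probes (horizontal axis, in order of their mean) in the 4 groups; points are samples and lines are group means. At each probe the astrocyte means lie above the microglia means, by a fitted 1.63 to 2.35 log2 units, and microglia samples are widely spread and partly blank.

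Gpr17, a receptor related to the purine and leukotriene receptors, marks precursors that have begun to differentiate. Its log2 value (probe 3774) was 3.65, 4.16, 4.22 and 4.02 in WT and 3.16, 4.05, 3.90 and 3.60 in APP/PS1 astrocyte samples. All 4 arrays were lower in APP/PS1, by small amounts from -0.11 to -0.50, but the groups overlapped. The effect was -0.34 ± 0.18 (95% interval -0.74 to 0.06, limma adjusted p = 0.184). In microglia Gpr17 ranged from 3.06 to 5.08 (median 4.17) in WT and from 2.99 to 4.40 (median 4.22) in APP/PS1 samples, and the effect was -0.09 ± 0.14 (limma adjusted p = 0.725). Neither the difference of effects (-0.25 ± 0.22, limma adjusted p = 0.463) nor that between the cell types (-0.14 ± 0.30, limma adjusted p = 0.747) passed. Its signal was brighter than that of 10.9% to 24.6% of genes in astrocyte samples, a dim range, and the interval of the cell type difference was -0.77 to 0.49.

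Neu4 encodes a sialidase found in the oligodendrocyte lineage. It was the least measured of the 8 genes, with values on 3 of 4 astrocyte arrays and 1 of 7 microglia arrays (probe 17165). On astrocyte arrays 1, 2 and 4 it was 2.85, 2.93 and 3.42 in WT and 2.45, 0.10 and 2.40 in APP/PS1 samples. The 3 APP/PS1 values lay below the 3 WT values, and array 2 was far lower than the others. The effect of -1.32 ± 0.65 (95% interval -3.48 to 0.84) did not pass (limma adjusted p = 0.259). It was -0.71 without astrocyte replicate 2 and -1.92 without astrocyte replicate 1, neither called. The single microglia array had 2.82 in WT and 1.68 in APP/PS1, so microglia comparisons of Neu4 rest on 1 pair.

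C1ql1 encodes a secreted protein of the C1q family that precursors make. Its log2 value (probe 35831) was 2.85, 3.71, 0.55 and 2.52 in WT and 3.31, 3.42, 4.81 and 3.93 in APP/PS1 astrocyte samples. WT sample 3 was far below every other sample, so that array 3 gave a difference of 4.27 against 0.45, -0.29 and 1.42 on arrays 1, 2 and 4. The effect of 1.46 ± 0.54 did not pass (limma adjusted p = 0.0658), and without astrocyte replicate 3 it was 0.63. It passed without the array block (limma adjusted p = 0.0461) and with array as a random block (limma adjusted p = 0.00664). In microglia, measured on 6 of 7 arrays, C1ql1 ranged from 2.43 to 4.22 (median 2.85) in WT and from 2.98 to 3.59 (median 3.38) in APP/PS1 samples. The effect there was 0.56 ± 0.45 (limma adjusted p = 0.457), and the cell types differed by -0.01 ± 0.64 (95% interval -1.35 to 1.34).

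Lhfpl3 encodes a tetraspan membrane protein enriched in precursors. At its main probe (484) it was 5.94, 5.60, 5.90 and 4.82 in WT and 5.39, 4.66, 5.69 and 5.17 in APP/PS1 astrocyte samples, lower in APP/PS1 on 3 of 4 arrays with overlapping groups. The effect was -0.34 ± 0.18 (limma adjusted p = 0.184), and without astrocyte replicate 4, whose pair went the other way, it was -0.57 and passed (limma adjusted p = 0.0318). In microglia it ranged from 4.64 to 6.33 (median 5.88) in WT and from 4.81 to 6.32 (median 5.85) in APP/PS1 samples, with an effect of 0.03 ± 0.14 (95% interval -0.28 to 0.34). The second probe of Lhfpl3 gave -0.36 in astrocytes and was not called. The probes differed in sign for the cell types, -0.35 at the main probe and 0.83 at the other, neither called.

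Across the set, 2 of 8 genes were called in astrocytes, both lower in APP/PS1. Among all genes tested 33.4% were called in astrocytes, and 18.0% were called lower, so a count of 2 of 8 is near the share of all genes. The median astrocyte effect of the 8 genes was -0.34, and that of all genes was -0.07. In microglia 0 of 8 were called by limma, and 0 had an unadjusted p under 0.05, against 19.7% of all genes called, with medians of -0.03 and -0.04. The difference of effects was called for 2 of 8, Olig1 and Olig2, against 26.6% of all genes. Between the cell types 4 of 8 were called, against 53.3% of all genes. Olig1, Olig2 and Pdgfra were 3 of 8 higher in astrocytes, where 35.2% of all genes were, and Sox10 was 1 of 8 lower, where 18.0% were.

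**Figure D3:**
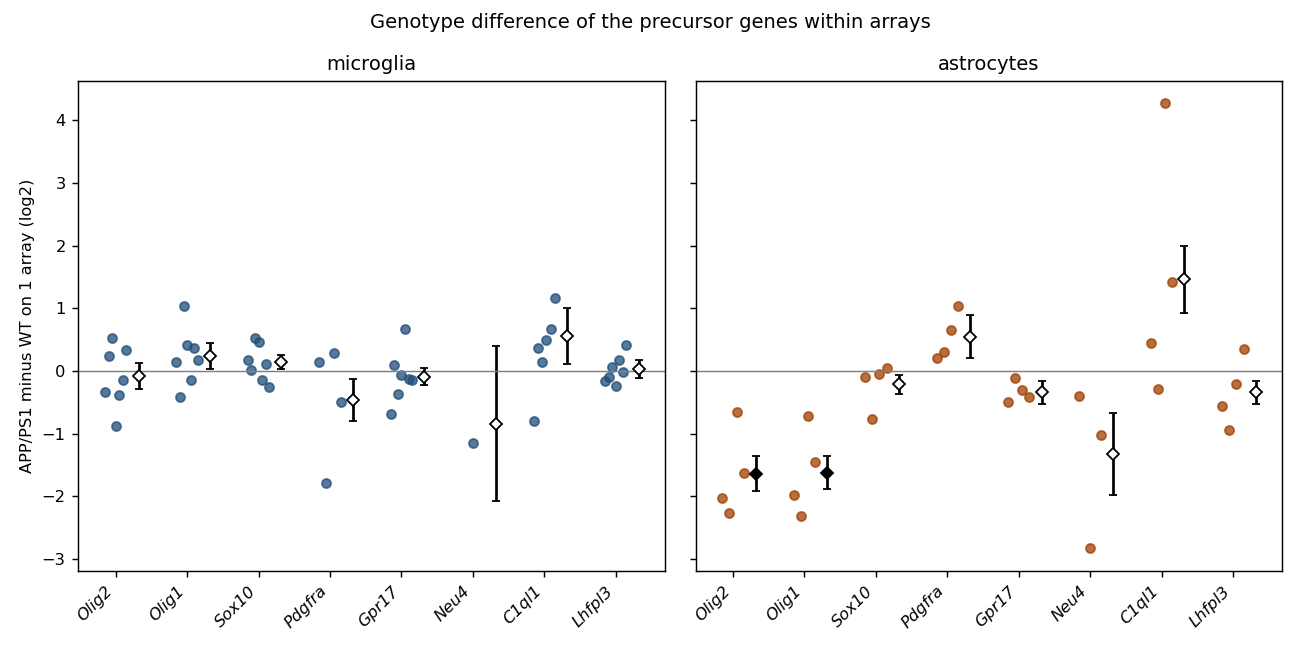
Log2 difference APP/PS1 minus WT within each array (points, vertical axis) for the 8 genes (horizontal axis) in 7 microglia and 4 astrocyte arrays; diamonds are the fitted effects with their SE, filled where the limma adjusted p was under 0.05. Olig2 and Olig1 fell on all 4 astrocyte arrays, and no effect was called in microglia.

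Other genes known from precursors were read from a list of 20. For this list and those below, the shares of all genes called were 33.4% in astrocytes (18.0% called lower) and 19.7% in microglia. In astrocytes 2 rose and 7 fell in APP/PS1, with a median of -0.37 against -0.07 for all genes. The proteoglycan gene Cspg5 fell by 1.35 on the log2 scale (limma adjusted p = 0.0023), the phosphatase gene Ptprz1 by 1.35 (limma adjusted p = 0.00402) and the adaptor gene Shc4 by 0.60 (limma adjusted p = 0.00179). Cspg5 and Ptprz1 are also made by astrocytes and were 8.13 and 9.20 log2 units higher in astrocyte samples. Cspg4, the NG2 proteoglycan of precursors and also of mural cells, rose in both, by 2.38 ± 0.32 in astrocytes (limma adjusted p = 0.00049) and 2.36 ± 0.24 in microglia (limma adjusted p = 0.000141). Susd5 rose by 2.25 ± 0.33 in astrocytes (limma adjusted p = 0.0011). In microglia 3 of the 20 rose and 2 fell, with a median of 0.07.

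Of 18 genes of committed precursors and early oligodendrocytes, 3 rose and 7 fell in astrocytes, with a median of -0.50. Among all genes 33.4% were called there and 18.0% were called lower. The calcium channel gene Itpr2 fell by 0.92 (limma adjusted p = 0.000493) and Nfasc, an adhesion gene of myelinated axons and their glia, by 0.69 (limma adjusted p = 0.000594), on the log2 scale. Lims2 rose by 1.53 ± 0.16 (limma adjusted p = 0.000203). In microglia 1 of 18 rose, the kinase gene Fyn, by 1.55 ± 0.16 (limma adjusted p = 0.000134), and 2 fell, where 19.7% of all genes were called.

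Of 16 mature oligodendrocyte genes measured, 9 were lower and 4 higher in astrocyte than in microglia samples, with a median of -1.20 against 0.34 for all genes. Sox10 was on the same side. Among all genes 18.0% were called lower and 35.2% higher in astrocyte samples. The myelin genes Mag and Mbp differed by -5.61 ± 0.26 and -5.16 ± 0.17 (astrocytes minus microglia), and the transferrin gene Trf by -6.35 ± 0.33. With the genotype in astrocytes 5 of the 16 rose and 3 fell, against 33.4% of all genes called and 18.0% called lower. Mbp rose by 1.19 ± 0.13 (limma adjusted p = 0.000243) and Trf by 1.16 ± 0.25 (limma adjusted p = 0.00615), while Cnp fell by 0.97 (limma adjusted p = 0.00139) and Aspa by 0.69 (limma adjusted p = 0.014), on the log2 scale. Mbp also rose in microglia, by 0.71 ± 0.10 (limma adjusted p = 0.000965). The lists of related genes share Vcan, Sox8 and Nkx2-2, and Cspg4, Pdgfrb, Sox9 and P2ry12 are also in marker lists, so the counts are not separate.

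**Figure D4:**
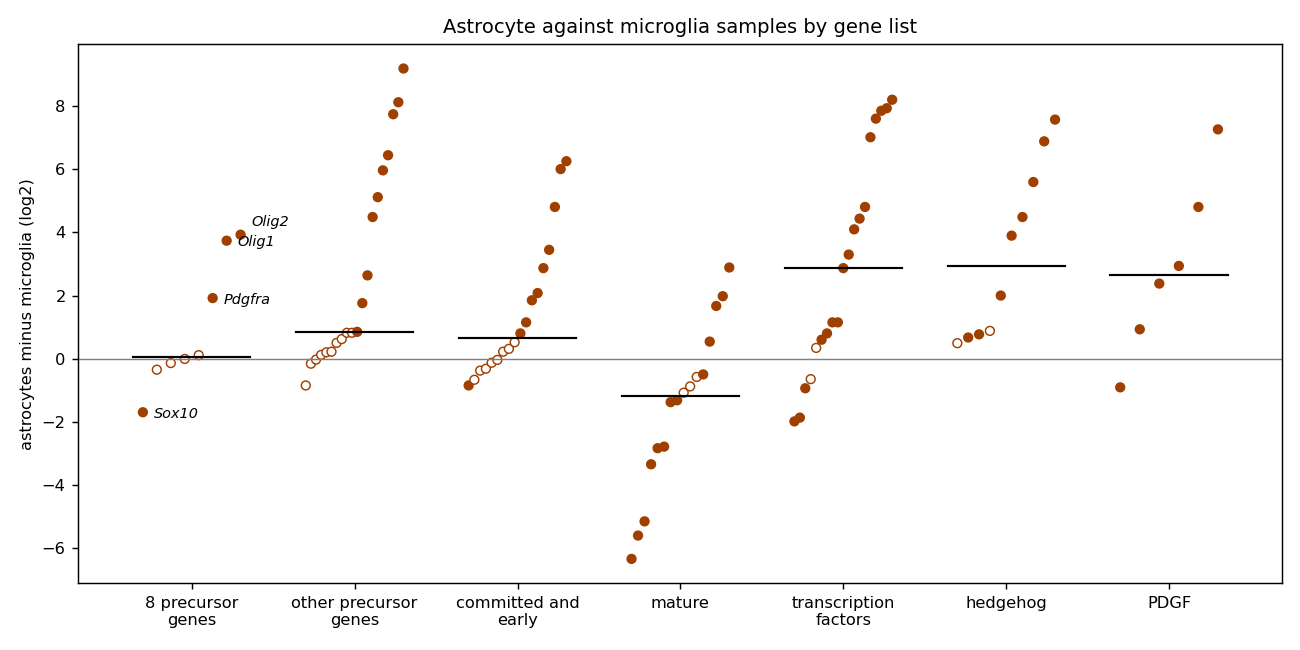
Astrocytes minus microglia (log2, vertical axis) for the 8 genes and 6 lists of related genes (horizontal axis); each point is a gene, filled where the limma adjusted p was under 0.05, and lines are list medians. Mature oligodendrocyte genes have a median of -1.20 and reach -6.35, and Sox10 lies on their side, whereas Olig1, Olig2 and Pdgfra lie above 0.

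Of 19 measured regulators that work with or against Olig2 and Sox10, 11 fell and 1 rose in astrocytes, where 18.0% of all genes fell. Their median was -0.66, against -0.07 for all genes, and they include Sox9, which is also 1 of the astrocyte markers described further on. Hes5, a target of Notch that holds back differentiation, fell by 2.33 (limma adjusted p = 0.000446), and Tcf4, a dimer partner of Olig proteins, fell by 0.83 (limma adjusted p = 0.000737), on the log2 scale. The inhibitor gene Id4 fell by 1.65 (limma adjusted p = 0.00182). Hes5 and Id4 are also astrocyte genes, 8.21 and 7.94 log2 units higher in astrocyte samples. In microglia 4 fell, among them Sox4 by 0.88 (limma adjusted p = 0.000128) and Hes1 by 1.26 (limma adjusted p = 0.00086).

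Hedgehog signalling induces Olig2 in development. Of 10 genes of that pathway measured, 4 fell and 0 rose in astrocytes, against 33.4% of all genes called and 18.0% called lower. The receptor gene Ptch1 fell by 0.81 (limma adjusted p = 0.0013), Gli3 by 1.37 (limma adjusted p = 0.0115) and Gli1 by 1.15 (limma adjusted p = 0.0165), on the log2 scale. Ptch1, Gli3 and Gli1 were also 4.49, 7.58 and 6.89 log2 units higher in astrocyte than in microglia samples. A link of their fall to that of Olig2 was not tested. In microglia Smo fell by 0.22 (limma adjusted p = 0.0165), the 1 gene of the 10 called there.

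Among ligands and other receptors of the Pdgfra family, 3 of 6 rose and 1 fell in astrocytes, where 33.4% of all genes were called. Pdgfa, the ligand that drives precursor division, rose by 1.38 ± 0.18 (limma adjusted p = 0.000439), Pdgfb by 1.12 ± 0.18 (limma adjusted p = 0.0013) and Pdgfd by 1.13 ± 0.23 (limma adjusted p = 0.0124). Pdgfc rose in microglia, by 1.41 ± 0.17 (limma adjusted p = 0.000407). The sister receptor gene Pdgfrb, a mural cell gene, was 7.27 ± 0.45 log2 units higher in astrocyte than in microglia samples and changed by 0.84 ± 0.34 with the genotype, not called (limma adjusted p = 0.0868).

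Families related to the remaining members were also read. Of the 3 other sialidase genes, the lysosomal Neu1 fell by 0.78 in astrocytes (limma adjusted p = 0.000309) and by 0.29 in microglia (limma adjusted p = 0.0173), on the log2 scale. A list of 8 measured genes held C1q-like and cerebellin genes and Adgrb3, a receptor gene for C1q-like proteins. None of the 8 was called for genotype by limma in either cell type (1 in astrocytes and 0 in microglia at an unadjusted p under 0.05). Of 5 relatives of Lhfpl3, Lhfp rose in astrocytes by 1.31 ± 0.29 (limma adjusted p = 0.0169). Of 9 receptors related to Gpr17, 5 rose in astrocytes and 3 fell in microglia, where 33.4% and 19.7% of all genes were called. They include P2ry13, a microglia gene (cell type difference -7.90 ± 0.42) that rose by 1.36 ± 0.31 in astrocyte samples (limma adjusted p = 0.00689). Gpr17 itself had an astrocyte effect of the other sign, -0.34, and was not called.

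**Figure D5:**
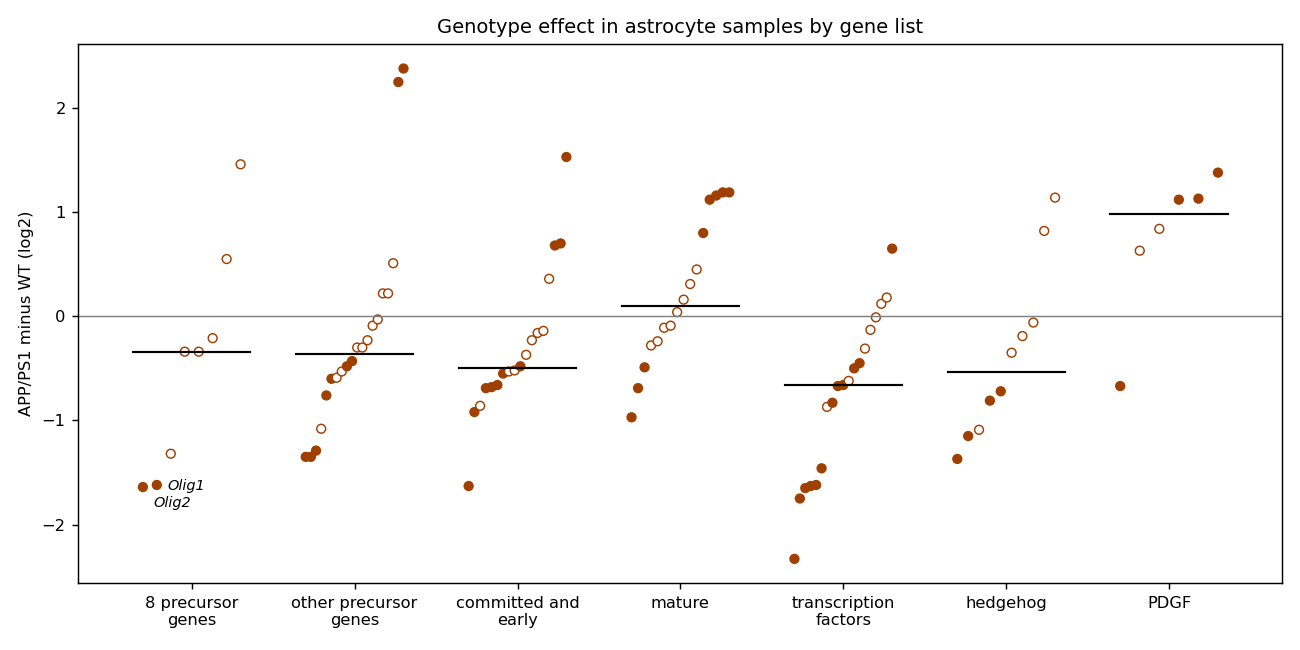
APP/PS1 minus WT in astrocyte samples (log2, vertical axis) for the 8 genes and the same 6 lists (horizontal axis); each point is a gene, filled where the limma adjusted p was under 0.05, and lines are list medians. Olig1 and Olig2, at -1.62 and -1.64, lie lowest of the 8 genes, and the transcription factor list has a median of -0.66.

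Beside the fall of Olig1 and Olig2, markers of other cells differed by genotype among the astrocyte samples. Of 14 astrocyte markers 13 fell and 1, Gfap, rose. Of 13 microglia markers 11 rose, and their mean log2 value over 12 genes was 7.07 to 8.78 in WT and 8.80 to 11.29 in APP/PS1 astrocyte samples. Of 10 endothelial markers 9 rose and of 9 mural markers 6 rose. On astrocyte arrays 1 to 4 the median difference of 12 astrocyte markers was -2.14, -1.65, -0.32 and -1.50, that of the microglia markers 3.43, 1.97, 2.19 and 0.42, and that of 7 mural markers 1.67, 3.34, 2.16 and 1.21. Olig2 differed by -2.03, -2.26, -0.65 and -1.63 on the same arrays, so that both Olig2 and the astrocyte markers fell least on array 3. Of 10 fibroblast markers, which bear on Pdgfra, 4 rose and 1 fell, and their median differences were 0.18, 0.03, -0.08 and 1.45. At its main probe Pdgfra differed by 0.21, 0.31, 0.66 and 1.03 on these arrays. In microglia 8 of 14 astrocyte markers fell and 1 rose. The part of these cells in the results for the 8 genes was not tested.

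The genes most like the set in pattern were found from the mean of the members' centred log2 values. Over the 8 astrocyte samples, with 7 members measured in all of them, the highest Pearson r among 21924 genes were those of Chmp1b (0.979), Olfr1428 (0.979), Pak1ip1 (0.975), Frg2f1 (0.973) and Olfr1176 (0.973). Over the 14 microglia samples, with 5 members measured throughout, Arhgap33 (0.975), Fam98b (0.971), Taf13 (0.971), Usp31 (0.968) and Kpna1 (0.967) led among 16365 genes. No gene was in both groups of 5, and with so many genes ranked over few samples that share arrays these values are a description.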

How the data were processed

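RNA of sorted cells was amplified, labelled with Cy3 or Cy5 and hybridised to Agilent arrays, per the labels' protocols. The table deposited by the authors holds log2 values, 1 column for each channel. The submitters' processing notes name limma; the background and normalization steps are not stated there. Column medians were 6.24 to 6.26, and the largest gap between columns at any quantile was 0.205, so any shift common to all genes would not show. On 11 of 11 arrays a blank in one channel was a blank in the other. Each probe's position relative to other genes describes brightness, not abundance. The design text calls the samples biological replicates.

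Of 43020 probes, 33026 named 1 gene and 9994 were unnamed. Genotype effects were fitted with limma 3.58.1 (R 4.3.3, statmod 1.5.0) over 22 samples with a fixed block for the array, a dye term, and genotype nested in cell type, Benjamini-Hochberg adjusted over all genes tested at a threshold of 0.05. Cell types were compared with array as a random block and dye. Pairing came from the labels, which place both samples of a number on 1 array. Same-array deviations correlated by 0.473 at the median for microglia pairs (0.367 to 0.632) and by 0.227 for astrocyte pairs (0.000756 to 0.497, 3 of 4 over 0.1). Tables used Python 3.11.15, pandas 2.3.3, numpy 2.4.6 and matplotlib 3.10.9, and the fits were tested on simulated data.

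Members, lists and tests were chosen with earlier results of these data known. All 8 members are named, and every probe of theirs was fitted. Each related list gives up to 4 genes with the smallest adjusted p for genotype and 2 with the largest cell type difference; each marker list its brightest 2; likeness the top 5. Some genes named by the rule are left unprinted. The brightest markers were Aldoc, Slc1a3, Csf1r, Siglech, Ly6c1, Flt1, Tagln, Acta2, Mgp, Col1a2, Snap25 and Map2. Some listed genes were not analysed here. The neuron markers gave 1 higher and 3 lower of 12 in astrocytes, and 0 higher and 6 lower in microglia. Alternatives were other blocks, no dye term, quantile normalization, averaged or other probes, filters on blanks and dim genes, each cell type alone, slides, arrays matched in Eif2s3y and leaving out each array.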

Additional observations from a re-analysis of the deposited data

Results flagged for a closer look

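The effect of genotype differed between the cell types, by the interaction contrast of limma, for Olig1 (-1.86) and Olig2 (-1.56), astrocytes minus microglia; that of Olig2 was not called with microglia of slide 1 only. Among 42 groups of 4 to 7 values checked for a sample far from the others, over the levels and within-array differences of the 8 genes, 1 stood out: C1ql1 in WT microglia, where replicate 1 had a log2 value of 4.22 against a median of 2.85. The nominal rate of the rule is about 1 in 20 such groups by chance, a rate that was not measured here.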

How the results depend on the processing

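The fall of Olig1 and Olig2 in astrocytes passed in every alternative that tested them, leave-one-out fits included (Olig1 -1.90 to -1.41, Olig2 -1.98 to -1.44), and so did their cell type difference and that of Sox10. With astrocytes fitted alone, the fall of Olig1 and that of Olig2 passed narrowly (limma adjusted p = 0.0455 for each, threshold 0.05). A filter on genes above the median gene removed Olig2, leaving 1 member called in astrocytes, 1 for the difference of effects and 2 between the cell types. The difference of effects of Olig2 was lost with microglia of slide 1 only (-1.52, limma adjusted p = 0.0598; over its other alternatives the effect kept its call). Slide 1 also gave 1 member called in microglia, Pdgfra. Counts of all genes called moved more. Without the replicate block, which ignores the pairing on arrays, 1184 genes passed in microglia, 2447 passed in astrocytes and 1491 for the difference of effects, and the effects of Olig1 and Olig2 in astrocytes were -1.62 and -1.64 as with it. Slide 1 only gave 1425 genes in microglia and 3346 for the difference, and slide 2 only 584 and 2190. Each cell type fitted alone gave 2819 in astrocytes, and slide as a random block 7257 between the cell types. Arrays within 2 log2 units in Eif2s3y gave 2263 genes in microglia, 3790 in astrocytes and 3074 as to the difference, and arrays on the same side of 7, an alternative chosen after seeing the data, 4457 in astrocytes and 3865 for the difference. The fits on slides and on matched arrays hold fewer samples; for the others the cause was not tested.

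Signs turned for effects that were not called. With slide 1 only, Gpr17 was 0.08 and Lhfpl3 -0.02 in microglia; with slide 2 only, Pdgfra was 0.07 and Olig2 0.04. With arrays within 2 in Eif2s3y, Gpr17 was 0.06 and Lhfpl3 -0.04 in microglia; with arrays on the same side of 7, Gpr17 was 0.01 and the difference of effects of C1ql1 -0.04. Other probes gave 0.83 for Lhfpl3 between the cell types (0.01 with probes averaged) and 0.12 for Pdgfra in microglia. Leaving out each array in turn spanned 0 in microglia for Pdgfra (-0.75 to 0.07), Olig2 (-0.20 to 0.11), Gpr17 (-0.22 to 0.01), Neu4 (-1.45 to 0.48) and Lhfpl3 (-0.05 to 0.10), for the difference of effects of Neu4 (-1.69 to 0.74), and between the cell types for Gpr17 (-0.30 to 0.01), Neu4 (-0.16 to 0.54) and C1ql1 (-0.15 to 0.14). Dim probes and the number of arrays limit Neu4, C1ql1, Gpr17 and the microglia values of Pdgfra and Olig2.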
